A study of Homo sapiens with 10 samples.

Results

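The 10 genes described here write, read and remove DNA methylation: DNMT1, UHRF1, DNMT3A, DNMT3B, TET1, TET2, TET3, TDG, MBD4 and MBD2. They were taken by symbol and all 10 were found among the 28281 gene symbols of each count table. Poly(A) RNA of 2 human lung adenocarcinoma cell lines, A549 and H1944, was sequenced from cells with wild-type APEX1 (WT) and from cells labelled APE1 knockout (KO). APEX1 encodes APE1, the endonuclease that cuts DNA at abasic sites in base excision repair. There were 3 WT and 3 KO libraries of A549, grown in DMEM, and 2 WT and 2 KO libraries of H1944, grown in RPMI1640 with sodium pyruvate, both with serum. The labels do not say whether KO libraries came from 1 clone or several, or from separate cultures, and p-values therefore reflect no more than how far these libraries vary, which can be technical variation. The A549 KO libraries are called 65, 16 and 66 after their columns, which state no genotype. They were taken as KO because the labels left no other A549 group.

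In mammalian DNA a methyl group is placed on cytosine at CpG sites, where at promoters it is associated with silencing. DNMT3A and DNMT3B set new marks, and after replication UHRF1 binds the half-methylated site and brings in DNMT1, which copies the mark to the new strand. TET1, TET2 and TET3 oxidise the mark in steps, TDG cuts out the oxidised base, and the abasic site that this leaves is a substrate of APE1. MBD4 removes thymine and uracil left at CpG sites by deamination, and MBD2 binds methylated CpG sites and brings the NuRD repressor complex.

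Library totals ran from 18314224 to 30219850 counts. APEX1 mRNA was lower in every KO library: in CPM, counts scaled to a common library size, it measured 167, 254 and 237 CPM in A549 WT 1, 2 and 3 and 62.9, 60.1 and 107.8 CPM in KO 65, 16 and 66. In H1944 it measured 244 and 243 CPM in WT and 87.05 and 87.6 CPM in KO. Its log2 fold change was -1.51 in A549 (SE 0.30, edgeR adjusted p 0.521) and -1.48 in H1944 (SE 0.037, edgeR adjusted p 6.4e-19), so APEX1 mRNA remained in the KO libraries, and protein was not measured here. The A549 libraries form 2 sets, each holding both genotypes: the 28S ribosomal RNA gene RNA28SN4 was counted in WT 1 and KO 65 and had 0 counts in the other 4. The share of ribosomal RNA counts was at most 0.337% in the first set and 6.45% to 14.2% in the second. All H1944 libraries resembled the first set, with 2935 to 9851 RNA28SN4 counts and 0.139% to 0.316% ribosomal RNA. KO 16 stood apart within the second set: it had the 14.2%, and its counts differed from those of KO 66 with a chi-square per gene of 135, against 1.90 between WT 2 and WT 3. Of 9 lung epithelial markers, 4 to 6 had a mean above 1 CPM in each group, with the keratins KRT8 and KRT18 at 3281 CPM or more in every library. The lung markers NKX2-1, SFTPB and SFTPC stayed below 0.265 CPM in every library and thus do not mark the lung origin of either line. In H1944 the epithelial adhesion genes EPCAM and CDH1 measured 68.8 to 71.5 and 211 CPM in WT and 0.771 to 1.13 and 7.82 to 8.21 CPM in KO, whereas in A549 EPCAM ran from 15.1 to 28.8 CPM in WT and from 36.1 to 81.1 CPM in KO. The summed epithelial list measured 9794 to 9952 CPM in H1944 WT and 17501 to 17899 CPM in KO. In H1944 it was mostly KRT8 and KRT18, which were higher in KO, whereas NAPSA, EPCAM and CDH1 of the same list were lower. In A549 the summed list overlapped between genotypes, from 10574 to 25438 CPM in WT and from 11274 to 25507 CPM in KO. The part of these shifts in the values below was not tested. Fibroblast, leukocyte and endothelial lists summed to at most 16.9, 57.8 and 2.44 CPM, and the leukocyte sum was mostly CD68.

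The study's title names DNA G-quadruplexes, 4-stranded folds of G-rich DNA, so the upstream sequences of the members were searched for a pattern of 4 runs of GGG or longer with gaps of 1 to 7 bases, on both strands. The RefSeq table (GRCh38.p14) held 21 start sites of the 10 members, and the 250 bases before each were read. The pattern was in 9 of the 21 windows and in 5 of the 10 genes, UHRF1, DNMT3A, DNMT3B, TET1 and TET3, against 27.3% of all 24795 windows and 31.9% of 18328 genes. These counts show no excess, since windows can overlap. DNMT3A had 6 windows, 4 of them with the pattern, and some of these overlap and share a match. The members also had more windows per gene than all genes, which gives each more room for a match. No test of these counts was made. A match is a description of the letters and not evidence of a fold. Windows of 4 of the 5 genes with the pattern are shown because, in H1944, DNMT3A and DNMT3B rose and UHRF1 and TET3 fell. They are chr19:4909894-4910143 (plus strand) for UHRF1, chr2:25341926-25342175 (minus strand) for DNMT3A, chr20:32779602-32779851 (plus strand) for DNMT3B and chr2:73984660-73984909 (plus strand) for TET3, 5′ to 3′ in the direction of the gene, with the pattern in capitals (runs of G, or runs of C where it lies on the other strand). None of the 4 overlaps an exon annotated in GENCODE 29: those of UHRF1, DNMT3A and DNMT3B lie in introns of the gene's other transcripts and that of TET3 lies before the annotated gene.
UHRF1: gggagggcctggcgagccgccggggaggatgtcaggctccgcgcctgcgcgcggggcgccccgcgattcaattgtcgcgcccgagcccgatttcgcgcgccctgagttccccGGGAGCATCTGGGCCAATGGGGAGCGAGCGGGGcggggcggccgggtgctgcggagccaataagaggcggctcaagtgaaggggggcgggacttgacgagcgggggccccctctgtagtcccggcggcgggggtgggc
DNMT3A: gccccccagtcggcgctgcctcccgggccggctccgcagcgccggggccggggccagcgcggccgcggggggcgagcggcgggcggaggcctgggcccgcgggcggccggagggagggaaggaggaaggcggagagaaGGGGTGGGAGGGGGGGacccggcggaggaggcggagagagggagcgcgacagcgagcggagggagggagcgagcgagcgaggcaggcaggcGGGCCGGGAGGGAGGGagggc
DNMT3B: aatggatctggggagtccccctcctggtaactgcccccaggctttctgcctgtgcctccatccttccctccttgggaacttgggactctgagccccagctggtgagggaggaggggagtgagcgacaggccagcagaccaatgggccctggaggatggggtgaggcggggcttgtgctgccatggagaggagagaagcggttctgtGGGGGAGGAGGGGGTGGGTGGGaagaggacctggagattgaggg
TET3: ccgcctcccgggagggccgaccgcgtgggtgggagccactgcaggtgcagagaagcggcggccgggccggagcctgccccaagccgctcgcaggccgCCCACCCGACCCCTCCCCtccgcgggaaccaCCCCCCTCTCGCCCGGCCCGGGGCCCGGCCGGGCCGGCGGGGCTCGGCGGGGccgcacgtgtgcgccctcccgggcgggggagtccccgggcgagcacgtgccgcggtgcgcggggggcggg
The letters TTTNNCGC, a form of the binding site of the E2F cell cycle factors, were in 2 of the 3 UHRF1 windows, in no window of the other members, and in 6.84% of all windows on either strand.

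In H1944 KO, 9 of the 10 members changed: DNMT1, UHRF1, TET2, TET3, TDG and MBD2 fell and DNMT3A, DNMT3B and MBD4 rose. TET1 did not pass. Changes were tested with the quasi-likelihood test of edgeR over all genes, with Benjamini-Hochberg adjustment and a threshold of 0.05. So many H1944 genes passed (67.1% of 16626, 33.2% higher and 33.9% lower) that 9 of 10 is not far from the background. Fitted with all 10 libraries together, so that the A549 spread was shared, 0 members were higher and 2, DNMT1 and MBD2, lower in H1944 KO (6.66% and 7.61% of 17677 genes). The members' median absolute log2 fold change was 0.40, against 0.43 over all genes. In A549, 0 of the 10 passed, where 0.00633% of 15806 genes did, and limma-voom (0.00633% of genes) and DESeq2 (0.512% higher and 0.278% lower) also called 0 members. At an unadjusted edgeR p under 0.05 there were 2 members, DNMT3A and MBD2, against 5.66% of all genes. The biological coefficient of variation was 39.0% in A549 and 4.74% in H1944, so an A549 value that missed the threshold is not shown to be unchanged.

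**Figure D1:**
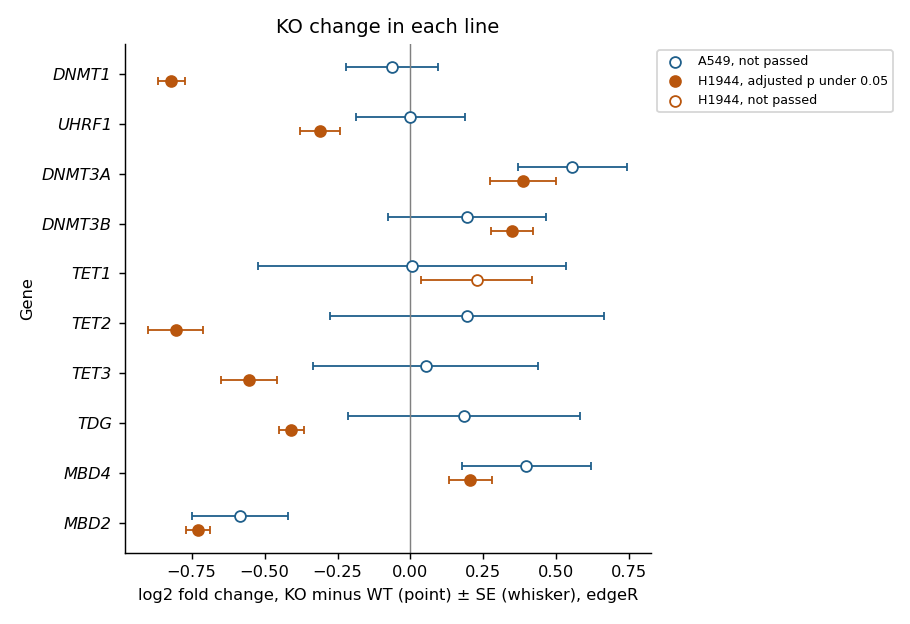
Log2 fold change of each member, KO minus WT, with its standard error (SE), from edgeR fits of A549 (3 against 3 libraries) and H1944 (2 against 2). Filled points passed an adjusted p of 0.05; DNMT3A and MBD4 lie above 0 and MBD2 below 0 in both lines, and the A549 whiskers of the TET genes and TDG are several times as long as those of H1944.

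DNMT1, the maintenance methyltransferase (chromosome 19, 10133345 to 10231286, minus strand, GRCh38), fell in H1944. It measured 94.6 and 97.02 CPM in WT and 55.1 and 53.4 CPM in KO, with no overlap. The log2 fold change was -0.82 with an SE of 0.046 (edgeR adjusted p 8.7e-13). In A549 it measured 172, 173 and 168 CPM in WT 1, 2 and 3 and 148, 175 and 168 CPM in KO 65, 16 and 66. Only KO 65 lay below the WT libraries there (log2 fold change -0.06, SE 0.16, edgeR adjusted p 0.995). DNMT1 shares 83 exonic bases with S1PR2 on the same strand, but S1PR2 was at most 2.44 CPM in any library.

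UHRF1, which recruits DNMT1 to half-methylated sites (chromosome 19, 4903080 to 4962154, plus strand), measured 65.01 and 57.97 CPM in H1944 WT and 53.1 and 46.3 CPM in KO. The groups did not overlap, although the WT libraries were 7 CPM apart and the highest KO library was within 5 CPM of the lowest WT one. The log2 fold change was -0.31 (SE 0.070, edgeR adjusted p 0.0011). In A549 UHRF1 measured 103.6, 91.7 and 95.2 CPM in WT 1, 2 and 3 and 82.5, 113 and 94.6 CPM in KO 65, 16 and 66. KO libraries lay on both sides of WT, and the log2 fold change was -0.00011 (SE 0.19). The sum of DNMT1 and UHRF1 in H1944 was 157 ± 3.26 CPM (WT) and 104 ± 6.02 CPM (KO), SD over n = 2 libraries per group (exact 2-sided permutation p 0.333, the smallest that 2 against 2 libraries allow). In A549 it was 268 ± 7.01 CPM (WT) and 260.4 ± 28.9 CPM (KO), SD over n = 3 libraries per group (exact permutation p 0.7).

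DNMT3A, a de novo methyltransferase (chromosome 2, 25227855 to 25342590, minus strand), was higher in KO in both lines. It measured 10.98 and 10.2 CPM in H1944 WT and 13.6 and 14.1 CPM in KO, a log2 fold change of 0.39 (SE 0.11, edgeR adjusted p 0.0048). In A549 it measured 17.9, 15.3 and 16.04 CPM in WT 1, 2 and 3 and 25.98, 25.1 and 21.3 CPM in KO 65, 16 and 66. Every A549 KO library lay above every WT library. The log2 fold change was 0.55 (SE 0.19), with an unadjusted p of 0.0213 that did not pass over all genes (edgeR adjusted p 0.795; exact permutation p 0.1, the smallest that 3 against 3 libraries allow).

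DNMT3B, the other de novo enzyme (chromosome 20, 32762385 to 32809356, plus strand), measured 26.3 and 24.7 CPM in H1944 WT and 32.1 and 32.9 CPM in KO. It rose by 0.35 on the log2 scale (SE 0.073, edgeR adjusted p 0.00026). In A549 it measured 13.5, 10.7 and 10.4 CPM in WT 1, 2 and 3 and 9.90, 17.5 and 12.3 CPM in KO 65, 16 and 66. These groups overlapped, with KO 65 lowest and KO 16 highest of all 6 (log2 fold change 0.19, SE 0.27, edgeR adjusted p 0.995). DNMT1 thus fell in H1944 while both de novo enzymes rose.

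Of the 3 TET dioxygenases, TET2 and TET3 fell in H1944 and TET1 did not pass. TET2 (chromosome 4, 105145875 to 105279816, plus strand) measured 22.2 and 20.98 CPM in WT and 12.3 and 12.4 CPM in KO, a log2 fold change of -0.80 (SE 0.094, edgeR adjusted p 1.4e-07). TET3 (chromosome 2, 73986404 to 74108176, plus strand) measured 19.3 and 21.3 CPM in WT and 13.3 and 14.3 CPM in KO, a log2 fold change of -0.55 (SE 0.096, edgeR adjusted p 3.2e-05). In TET2 and TET3 every KO library was below every WT library.

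TET1 (chromosome 10, 68560656 to 68694482, plus strand) was the least abundant member, with 86 and 84 counts in H1944 WT and 133 in each KO library. These were 3.81 and 4.005 CPM in WT and 4.68 and 4.46 CPM in KO. The KO libraries were higher without overlap, but the log2 fold change of 0.23 (SE 0.19) did not pass (edgeR adjusted p 0.302). The 3 TET genes in H1944 summed to 45.8 ± 0.699 CPM (WT) and 30.8 ± 0.678 CPM (KO), SD over n = 2 libraries per group (exact permutation p 0.333).

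In A549 the TET genes split the libraries in a way that did not follow genotype. Their summed level was 70.8 CPM in WT 1, 62.3 CPM in KO 16, 46.6 CPM in KO 65, and 31.3, 30.6 and 31.4 CPM in WT 2, WT 3 and KO 66. TET2 measured 16.1, 6.39 and 6.48 CPM in WT 1, 2 and 3 and 10.3, 15.9 and 6.97 CPM in KO 65, 16 and 66. TET3 measured 48.99, 22.7 and 22.2 CPM in WT 1, 2 and 3 and 33.6, 41.5 and 22.3 CPM in KO 65, 16 and 66. TET1 measured 5.68, 2.20 and 1.95 CPM in WT 1, 2 and 3 and 2.66, 4.97 and 2.22 CPM in KO 65, 16 and 66. For each of the 3 genes WT 1 and KO 16 were the highest libraries, and WT 2, WT 3 and KO 66 lay close together at the bottom. The log2 fold changes in A549 were 0.0049, 0.19 and 0.05 for TET1, TET2 and TET3, with SEs of 0.53, 0.47 and 0.39.

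TDG, the glycosylase that takes out oxidised cytosine (chromosome 12, 103965804 to 103988874, plus strand), fell in H1944. It measured 99.2 and 102 CPM in WT and 74.9 and 76.9 CPM in KO, a log2 fold change of -0.41 (SE 0.043, edgeR adjusted p 2.7e-08). In A549 it measured 81.9, 38.1 and 38.7 CPM in WT 1, 2 and 3 and 58.1, 82.6 and 39.5 CPM in KO 65, 16 and 66. As for the TET sum, WT 1 and KO 16 were the highest libraries, KO 65 lay between, and WT 2, WT 3 and KO 66 were the lowest. TDG has a processed pseudogene, TDGP1, that is no row of the tables, and how reads matching both were counted is not known.

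MBD4, the thymine glycosylase with a methyl-CpG binding domain (chromosome 3, 129430944 to 129440179, minus strand), was higher in KO in both lines. In H1944 it measured 32.3 and 29.7 CPM in WT and 37.6 and 33.99 CPM in KO, and rose by 0.21 on the log2 scale (SE 0.073, edgeR adjusted p 0.0171). That call was lost by DESeq2 (adjusted p 0.0939), without KO 1 (edgeR adjusted p 0.222) and without WT 2 (edgeR adjusted p 0.103). In A549 it measured 33.8, 29.3 and 27.5 CPM in WT 1, 2 and 3 and 50.3, 34.6 and 34.3 CPM in KO 65, 16 and 66. No A549 KO library lay within the WT range, although KO 16 and KO 66 exceeded WT 1 by less than 1 CPM (log2 fold change 0.40, SE 0.22, edgeR adjusted p 0.986). MBD4 shares 144 exonic bases with IFT122 on the opposite strand, and strand use in counting was not given. IFT122 itself had log2 fold changes of 0.10 in H1944 and 0.03 in A549 (edgeR adjusted p 0.308 and 0.995).

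MBD2, the reader that brings NuRD to methylated DNA (chromosome 18, 54151601 to 54224788, minus strand), was lower in KO in both lines. It measured 129.6 and 129.9 CPM in H1944 WT and 79.3 and 77.4 CPM in KO, a log2 fold change of -0.73 (SE 0.040, edgeR adjusted p 5.7e-13). In A549 it measured 72.2, 84.8 and 86.2 CPM in WT 1, 2 and 3 and 54.6, 54.7 and 52.8 CPM in KO 65, 16 and 66. The 3 A549 KO libraries lay within 2 CPM of each other and far below the lowest WT library. The log2 fold change of -0.59 (SE 0.16) had an unadjusted p of 0.0094 and did not pass over all genes (edgeR adjusted p 0.673, exact permutation p 0.1). With DESeq2 the adjusted p was 0.105, and with a term for the set of the library the edgeR adjusted p was 0.242.

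**Figure D2:**
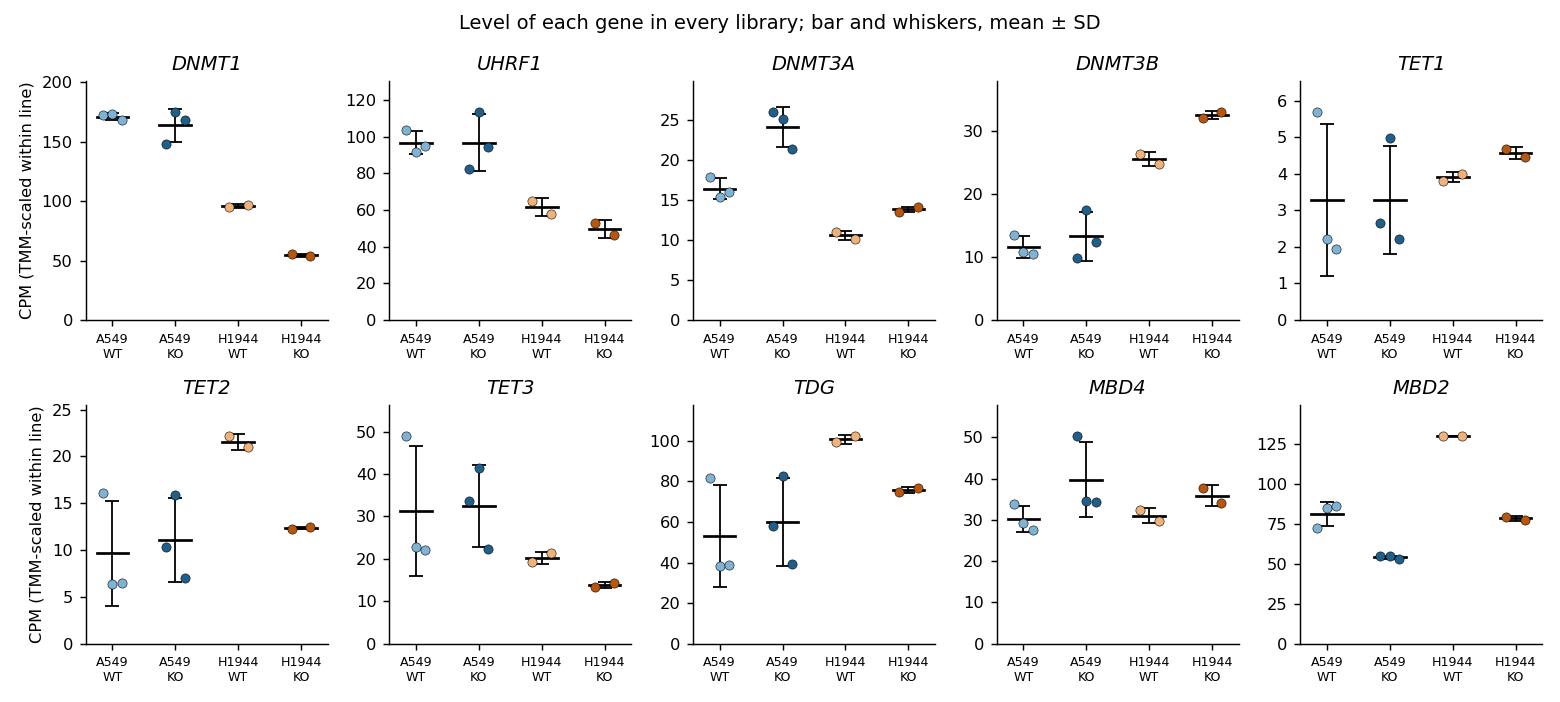
CPM of each member in all 10 libraries, scaled by TMM within each line, with group mean ± SD (n = 3 per A549 group, n = 2 per H1944 group). MBD2 is below WT in all KO libraries of both lines, DNMT1 only in H1944, and TET2, TET3 and TDG spread widely within both A549 groups.

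DNMT3A, MBD4 and MBD2 were the members whose KO and WT libraries did not overlap in either line. KO lay on the same side of WT in both lines, above it for DNMT3A and MBD4 and below it for MBD2. In A549 alone, the KO libraries lay above WT for 2 members and below for 1, against 6.11% and 4.6% of all genes. In H1944 the KO libraries lay above WT for 4 members and below for 6, against 41.1% and 41.4%. Of 14985 genes tested in both lines, 2.77% were higher in KO without overlap in each line and 2.06% were lower. The lines share no library. The members are few, and no test of these counts was made.

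Within the A549 sets, KO 65 was set against WT 1, and KO 16 and KO 66 against the mean of WT 2 and WT 3. DNMT3A gave differences of 0.52, 0.66 and 0.43 on the log2(CPM + 0.5) scale for KO 65, 16 and 66, and MBD4 gave 0.57, 0.28 and 0.27. MBD2 gave -0.40, -0.64 and -0.69. These 3 members had the same sign in every KO library, 2 higher and 1 lower, where 17.2% and 16.8% of all genes did. The other members did not. TET2 gave -0.62, 1.24 and 0.11, TDG -0.49, 1.09 and 0.04, and DNMT3B -0.43, 0.70 and 0.21. KO 65 was the lowest and KO 16 the highest in each of these. Among WT libraries, WT 1 exceeded the mean of WT 2 and WT 3 by 1.26, 1.26, 1.11 and 1.08 for TET1, TET2, TET3 and TDG. For DNMT1 it did so by 0.02. Among KO libraries, KO 65 minus the mean of KO 16 and KO 66 gave -0.29, -0.03, 0.14 and 0.02 for TET1, TET2, TET3 and TDG. For DNMT1 it gave -0.21. The difference seen in WT was thus not seen in KO, and each of these contrasts rests on 1 library of the first set. The part of the library set in the A549 values of these genes was not tested apart from these differences.

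**Figure D3:**
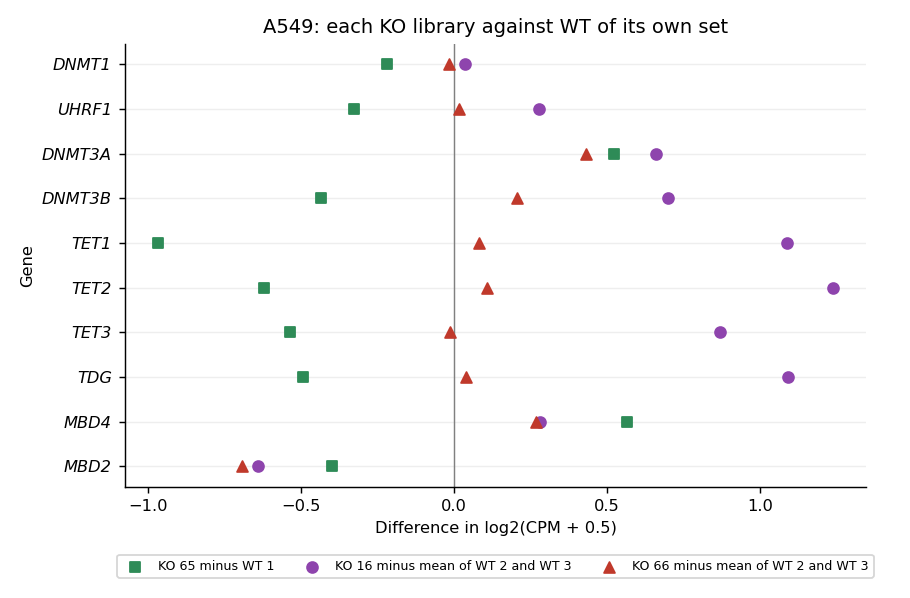
Difference in log2(CPM + 0.5) of each A549 KO library from the WT of its own set, per member. The 3 points of DNMT3A and MBD4 lie above 0 and those of MBD2 below 0, whereas TET1, TET2, TET3 and TDG run from between -0.97 and -0.49 in KO 65 to between 0.87 and 1.24 in KO 16.

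Levels were compared between genes as CPM per kilobase of exon, with exon lengths of GENCODE 29. In A549 WT the order from high to low was UHRF1 (19.2 ± 0.653), DNMT1 (17.8 ± 0.505), MBD2 (14.3 ± 1.77), TDG (10.9 ± 4.79), MBD4 (9.17 ± 0.704), TET3 (2.58 ± 1.17), DNMT3B (2.55 ± 0.294), DNMT3A (1.39 ± 0.0717), TET2 (0.592 ± 0.322) and TET1 (0.356 ± 0.214) (SD, n = 3). Libraries overlapped between the neighbours MBD2 and TDG, TDG and MBD4, TET3 and DNMT3B, and TET2 and TET1. In A549 KO the mean of MBD2 lay below those of TDG and MBD4. The MBD2 libraries (9.18 to 9.61) lay within the TDG range (8.15 to 16.4) and did not overlap with MBD4. In H1944 WT MBD2 (21.9 ± 0.0345) and TDG (20.2 ± 0.454) were highest, and no neighbours overlapped (SD, n = 2). In H1944 WT the level of DNMT1 (9.60 ± 0.172) was above that of DNMT3B (5.41 ± 0.234). In H1944 KO DNMT3B (6.89 ± 0.116) was above DNMT1 (5.44 ± 0.129), with no overlap between the genes in either group. This order depends on the exon lengths, 9796 bases for DNMT1 and 4630 for DNMT3B, joined over all annotated transcripts. Which transcripts the cells use was not tested. In CPM, not divided by length, DNMT1 stayed above DNMT3B in H1944 KO (means of 54.3 and 32.5 CPM). In A549 DNMT1 stayed several times above DNMT3B in both genotypes.

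**Figure D4:**
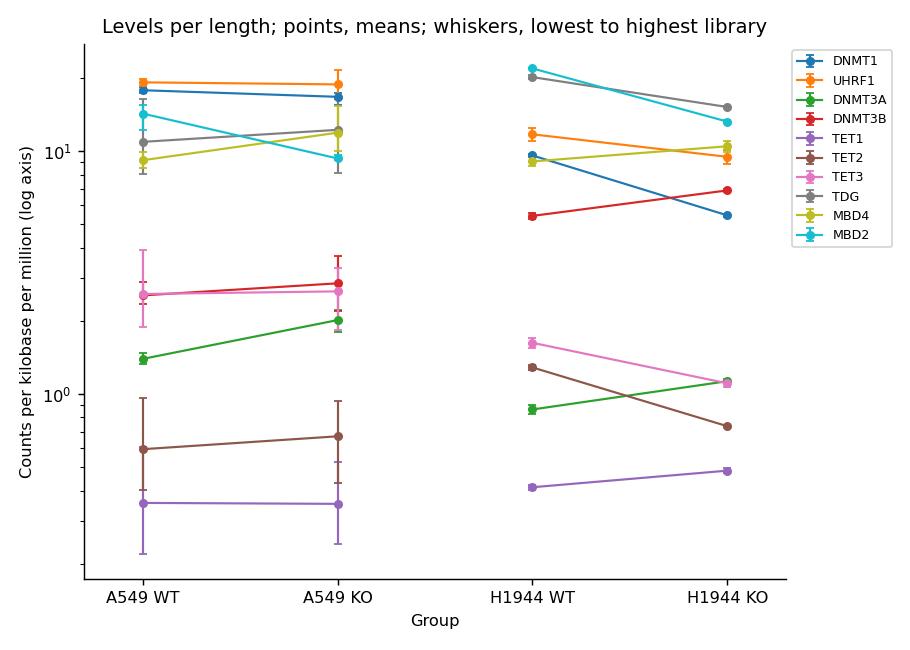
Level per length of the members in each group on a log axis, with whiskers from the lowest to the highest library. In H1944 the lines of DNMT1 and DNMT3B cross between WT and KO, which depends on the exon lengths used and is not so in CPM. In A549 the whiskers of TET2, TET3 and TDG are long in both groups.

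The WT cells of the lines differed in 5 members in a fit of all 10 libraries, where 43.5% of 17677 genes did, 21.2% higher in A549 and 22.2% lower. DNMT1, UHRF1 and DNMT3A were higher in A549 by 0.89, 0.71 and 0.69 on the log2 scale (SE 0.13, 0.16 and 0.16; edgeR adjusted p 0.00081, 0.0071 and 0.0088). DNMT3B and MBD2 were lower in A549, with differences of -1.09 and -0.62 (SE 0.22 and 0.14; edgeR adjusted p 0.0044 and 0.0076). TET3, MBD4 and TET1 had differences of 0.67, 0.02 and -0.21 that did not pass (edgeR adjusted p 0.158, 0.956 and 0.738). The calls of DNMT3A and MBD2 were lost without either H1944 WT library (edgeR adjusted p between 0.0557 and 0.0902), and that of UHRF1 without H1944 WT 2 (0.0846). TET2 and TDG had differences of -1.12 and -0.89 that did not pass (edgeR adjusted p 0.0575 and 0.0691) and passed without A549 WT 1 (0.0034 and 0.0047), the library where both were high. WT 1 is also the only A549 WT library with RNA28SN4 counts, which all H1944 libraries have. Without it, line and library set cannot be told apart in the WT libraries. By DESeq2, 4 members were lower in A549 (24.9% of genes), TET2 and TDG being added. Line, medium and any preparation batch cannot be told apart here.

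The KO change differed between the lines for 1 member, DNMT1, where 6.95% of all genes did (4.1% in its direction). Its change in A549 exceeded that in H1944 by 0.73 on the log2 scale (SE 0.18, edgeR adjusted p 0.0444), against changes of -0.06 and -0.82 in the 2 lines. The call is fragile: it was lost without the low-count filter (edgeR adjusted p 0.0951) and without 7 of the 10 libraries in turn, namely A549 WT 2, WT 3 and KO 16 and each of the 4 H1944 libraries (edgeR adjusted p 0.0553 to 0.230). TET2, TET3 and TDG had differences of 0.98, 0.59 and 0.57 with SEs of 0.60, 0.50 and 0.51, and none passed (edgeR adjusted p 0.389 to 0.560). That of TET2 was 1.53 without A549 WT 1 (edgeR adjusted p 0.0483). In that fit no A549 WT library had RNA28SN4 counts, whereas all H1944 libraries did. DNMT3A and MBD2 differed between lines by 0.14 (SE 0.23) and 0.11 (SE 0.20).

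Genes whose level most resembled a member's across the 10 libraries were ranked by Pearson's r of log2 CPM after each line was centred on its mean, among 10863 genes. The points share libraries and the A549 sets, and the centring leaves the difference between KO and WT in, so these values are a description. For DNMT1 the nearest was TAFA5 (r = 0.997), followed by GINS4 (r = 0.991), a subunit of the replicative helicase complex, and CDK5RAP2 (r = 0.990). UHRF1 had ALG10 (r = 0.952), CDC25A (r = 0.917), a phosphatase that starts S phase, and LARP7 (r = 0.907). For the other members only the nearest gene is given. TET2 had PRKDC (r = 0.998), the DNA-dependent protein kinase, and TDG had SMCHD1 (r = 0.996), an X-inactivation factor. TET2, TET3 and TDG had pairwise r of 0.977 to 0.979 with each other. The nearest for DNMT3B was AHNAK (r = 0.952), for TET1 TOP1 (r = 0.993), for TET3 ZNF148 (r = 0.996), for DNMT3A NTN4 (r = 0.980), for MBD4 TTYH3 (r = 0.978) and for MBD2 DHRS13 (r = 0.974). DNMT3A and MBD2 ran opposite to each other (r = -0.91), a value that includes their opposite KO changes in both lines.

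The other genes of the pathway were described by lists. Of 11 tested partners in maintenance methylation, 6 fell and 0 rose in H1944, with a median log2 fold change of -0.21 against -0.0065 over all genes, of which 33.2% rose and 33.9% fell. HELLS, the remodeller that opens DNA to methylation, fell from a mean of 17.2 ± 0.473 CPM to one of 9.46 ± 2.08 CPM (n = 2 per group, SD), a log2 fold change of -0.86. PCLAF, which binds PCNA and helps UHRF1 at forks, fell by 0.88 on the log2 scale, CDCA7L by 0.89 and LIG1, the replicative ligase, by 0.46. DNMT1 and UHRF1 are themselves made mostly in S phase, and of 24 S-phase and cell-cycle genes 22 fell and 1, CCNE1, rose in H1944, with a median of -0.69. MKI67 fell from a mean of 275 ± 9.74 CPM to one of 106.7 ± 0.415 CPM (n = 2 per group, SD), and TOP2A, a topoisomerase of dividing cells, fell by 1.205 on the log2 scale. MCM4 and MCM7, of the replicative helicase, fell by 1.12 and 1.10. In A549, 0 of the 24 passed, with a median of -0.17. The part of these cell-cycle values in the fall of DNMT1 and UHRF1 was not tested.

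Of 11 tested TET cofactors and regulators, 7 fell and 0 rose in H1944 (median -0.42), where 33.9% of all genes fell and 33.2% rose. The same shares apply to the other lists of this paragraph, and no test of these counts was made. IDH1 and IDH2, which make the TET cosubstrate 2-oxoglutarate, fell by 0.59 and 0.61 on the log2 scale, IDH1 from a mean of 691 ± 5.26 CPM to one of 460.0 ± 1.48 CPM and IDH2 from 147.1 ± 5.16 CPM to 96.4 ± 1.11 CPM (n = 2 per group, SD). SMCHD1 and QSER1 fell by 0.69 and 0.42. Of the 10 tested genes of S-adenosylmethionine supply, the methyl donor of the DNMTs, 8 fell and 2 rose (33.9% and 33.2% of all genes). MAT2A, which makes S-adenosylmethionine, fell by 0.35 on the log2 scale, and SHMT2, a serine hydroxymethyltransferase of the folate cycle, by 0.53. AHCY, which clears the product of methylation, rose by 0.53, and NNMT, which uses the donor on nicotinamide, by 0.93. Of 12 NuRD genes 6 rose and 3 fell in H1944 (median 0.15), not far from the shares of all genes (33.2% and 33.9%). MTA2, HDAC2 and CHD4 rose by 0.43, 0.37 and 0.33, and CHD3 fell by 0.36. Of 8 other methyl-CpG readers 4 fell and 1 rose (33.9% and 33.2% of all genes), among them MBD6 (-0.33), MBD1 (-0.22) and ZBTB38 (0.20).

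Downstream of TDG and MBD4, 5 of 15 tested repair genes fell and 2 rose in H1944 (median -0.04), where 33.9% of all genes fell and 33.2% rose. The count of falling genes is thus near the background, and 1 of the 5 is APEX1, the targeted gene. NEIL3, a glycosylase, fell by 0.94 and PARP1, a break sensor, by 0.56, whereas GADD45A, a p53 target that has been linked to demethylation, rose from a mean of 15.5 ± 1.42 CPM to one of 65.5 ± 1.02 CPM (n = 2 per group, SD), a log2 fold change of 2.08. GADD45A was also the 1 gene of all the lists whose KO change differed between the lines (A549 minus H1944 -1.41, edgeR adjusted p 0.0288). That is 1 of the 15 tested genes of this list and 0 in each other list, where 6.95% of all genes differed, so the lists show no excess of such genes. In A549 no gene of any of these lists passed the edgeR test over all genes, and their medians lay between -0.17 and 0.32. CXXC5, a CXXC protein that binds unmethylated CpG, had the smallest A549 p of the TET list, with means of 33.7 ± 6.40 CPM (WT) and 58.7 ± 9.67 CPM (KO) over n = 3 libraries per group (SD). Its log2 fold change was 0.80 (edgeR adjusted p 0.673). The genes with the smallest A549 p in the cell-cycle, methyl donor and maintenance lists were RRM2, NNMT and CDCA7L, with log2 fold changes of -0.72, -0.87 and -0.40 (edgeR adjusted p 0.762, 0.941 and 0.917).

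Of 14 germline genes known to be silenced by promoter methylation, 9 were too low to test in H1944 and 11 in A549. Of the 5 tested in H1944, SYCP3 and SOHLH2 rose, TDRD6 fell and STK31 did not pass, where 33.2% of all genes rose and 33.9% fell. The remaining one, BRDT, is described apart. SOHLH2, a germ cell transcription factor, rose by 0.90 on the log2 scale. SYCP3, of the meiotic chromosome axis, rose by 0.95, with means of 10.03 ± 2.47 CPM (WT) and 19.3 ± 1.08 CPM (KO) over n = 2 libraries per group (SD). BRDT, a testis bromodomain gene, had 0 counts in both WT libraries and 15 and 20 in KO. It passed the low-count filter only through its KO libraries, so it could only be called higher, and that call is not counted here. TDRD6 fell by 1.36 on the log2 scale. DAZL, DDX4, MAEL and TDRD1 had at most 2 counts in any library of either line.

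**Figure D5:**
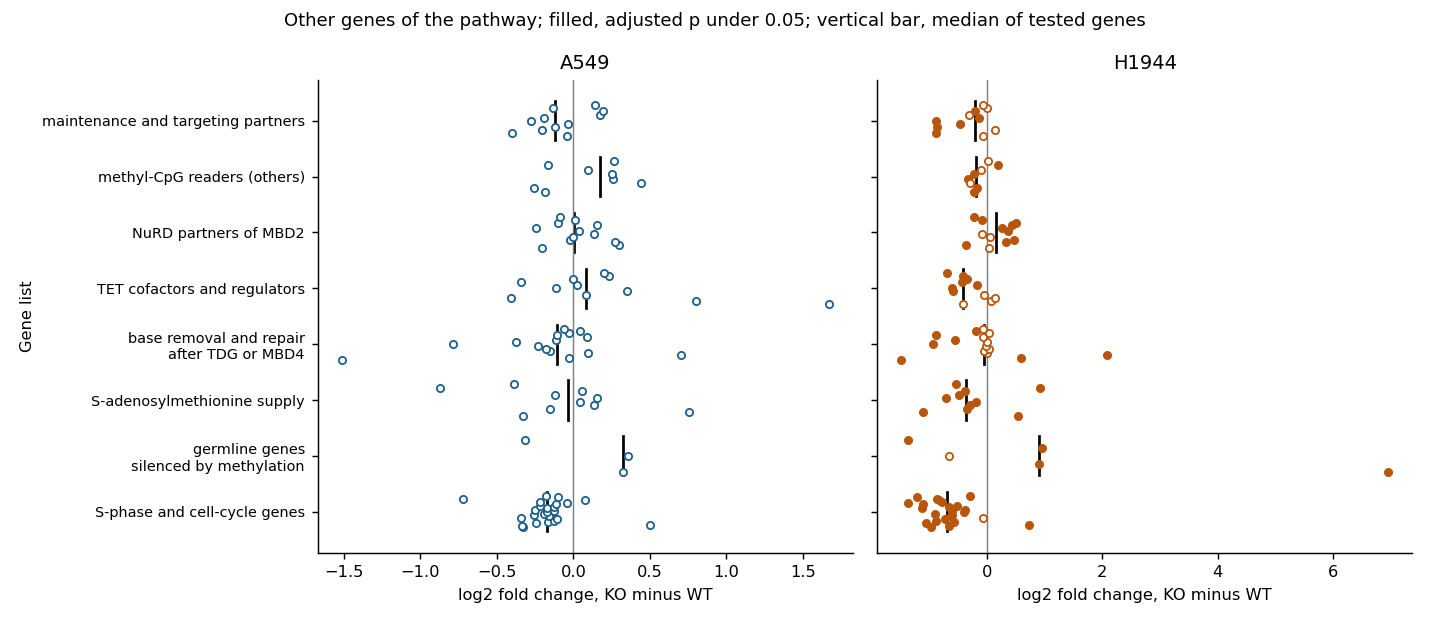
Log2 fold change, KO minus WT, of the tested genes of each list in A549 and H1944; filled points passed an adjusted p of 0.05 and vertical bars are medians. In H1944, 22 of 24 cell-cycle genes are filled and below 0; the point far to the right is BRDT, whose fitted value depends on the prior count because WT had 0 counts.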

How the data were processed

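Per the labels, total RNA was poly(A)-selected and sequenced as paired ends on a NovaSeq instrument. The submitters' processing notes name Trim Galore 0.5.0, HISAT2 2.1.0, featureCounts 1.6.4, DESeq2 and hg38; annotation, strand and the handling of reads with several alignments are not given in the sources used here. The authors deposited unnormalised read counts, 1 row per gene symbol. Genes were kept by filterByExpr (minimum count 10), scaled by TMM and tested in edgeR 4.0.16 (R 4.3.3) with its quasi-likelihood test, robust to outlying genes, per line, and over all 10 libraries for differences between lines. Each SE is approximate: the size of the log2 fold change divided by the root of its F statistic. DESeq2 1.42.0, limma-voom 3.58.1, other scaling, no filter, other terms and each library left out were alternatives. Fits were tested on simulated data. Members, lists and tests were chosen with earlier results of these data known. Named were the members, APEX1, up to 4 genes per list with the smallest adjusted p in H1944 and 1 in A549, and the genes most like each member; 1 gene that this rule names is not reported here. CCNE1, STK31 and 4 germline genes at or near 0, the marker genes and IFT122 were named after their values were seen. Counts from 0 were read with a floor of 3 counts per library, and this covers counting error only. No pair of replicate libraries agreed within sampling noise (chi-square per gene 1.90 for A549 WT 2 and WT 3, 135 to 273 for the other A549 pairs, 2.95 and 3.37 in H1944).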

Additional observations from a re-analysis of the deposited data

Results flagged for a closer look

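DNMT1 differed between the lines in its KO change. The log2 change in A549 minus that in H1944 was 0.73 (SE 0.18, edgeR adjusted p 0.0444 in the test of the difference itself), and the 2 H1944 KO libraries lay below both H1944 WT libraries whereas 2 of the 3 A549 KO libraries lay within or above the A549 WT range.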

How the results depend on the processing

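In H1944 no member changed direction under 8 other settings or without any 1 of the 4 libraries. The numbers of members higher and lower there were 3 and 6, and 0 and 2 (DNMT1 and MBD2) with all 10 libraries in 1 fit, where the A549 spread is shared; without 1 replicate they ranged from 2 to 3 and stayed at 6. With the replicate block, they were 3 and 6, and 5568 and 5660 of all genes were called; WT and KO libraries of the same number deviated from their group means with a correlation of 0.0210, so the numbers are not shown to pair the libraries. In A549 no fit with the replicate number was made, since the KO columns carry none; the library set served as a term there instead. The number of members with a higher change in A549 was 1, was 0 without the low-count filter, and ranged from 0 to 2 without 1 library. In WT against WT, 3 members were higher and 2 lower in A549, 4 lower by DESeq2, and the ranges without 1 library were 1 to 3 and 1 to 4.

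In A549 no member passed under any setting. The UHRF1 change was 0.10 in the larger set alone. That of TET1 was -0.0189 with DESeq2 size factors, -0.0190 by DESeq2, -0.0059 without the filter and -0.0124 with all 10 libraries. Without 1 library, A549 changes ranged from -0.11 to 0.0034 for DNMT1, -0.13 to 0.10 for UHRF1, -0.0611 to 0.36 for DNMT3B, -0.42 to 0.66 for TET1, -0.16 to 0.78 for TET2, -0.17 to 0.53 for TET3 and -0.12 to 0.64 for TDG. The differences between lines ranged from -0.64 to 0.38 for TET1 and -0.0508 to 0.28 for MBD4. WT differences ranged from -0.85 to 0.0403 for TET1 and -0.0633 to 0.0768 for MBD4, and that of TET1 was 0.0756 with a term for the set. The summed level of DNMT1 and UHRF1 ranged from -0.12 to 0.0401 in A549 and -0.66 to -0.54 in H1944, and that of the TET genes from -0.0923 to 0.54 and -0.60 to -0.55. The cause was not tested. TET1 had the fewest counts of the members, 43 to 133 per library.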
